A study of Homo sapiens with 4 samples.

Results

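The long noncoding RNAs NEAT1, MALAT1, PVT1, NORAD, GAS5, TP53TG1 and H19 were followed through A549 xenografts given aerobic exercise, radiation or both. They were taken by gene name, with earlier results of these data known, and made up 7 of the 38137 genes in the count tables. All 7 were among the 19393 genes whose mean count over the libraries was at least 20, which were the genes compared. The study asked whether running makes irradiated lung tumors respond more strongly. A549, a human non-small cell lung cancer line of alveolar basal epithelial origin, was grown as flank tumors in 6-week-old male BALB/c athymic nude mice, with 5 mice in each of 4 groups, and every group thus shares the cell line and the immunodeficient host. The control group had neither treatment, the radiation group received 2 Gy of X-rays per session, the exercise group ran on a treadmill at 8.0 m/min for 30 min per session, and the combination group ran before being irradiated on the same day, with 3 sessions per week over 2 weeks. The sources used here do not say if a library stands for 1 tumor or for several.

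Long noncoding RNAs act as RNA, often as scaffolds or decoys for proteins. NEAT1 builds paraspeckles, nuclear bodies that hold splicing and RNA-binding proteins, and MALAT1 lies in nuclear speckles, where splicing factors gather. NORAD is a cytoplasmic RNA that binds the Pumilio repressors of mRNA and guards chromosome stability, and TP53TG1 is induced by the tumor suppressor p53 after DNA damage. PVT1 is transcribed downstream of the oncogene MYC. GAS5 hosts small nucleolar RNAs (snoRNAs) in its introns, and its spliced RNA is removed by nonsense-mediated decay when cells translate actively. H19 is an imprinted fetal RNA that is the precursor of a microRNA and is low in most adult tissues other than skeletal muscle.

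Each group had 1 library, and hence no difference below has a test or a p-value. Assigned reads totalled between 33432637 and 35408705 per library. Counts were scaled to CPM, reads per 1000000, folds are ratios of CPM, and the 95% intervals after them are exact Clopper-Pearson intervals that cover counting error only, not the spread between tumors. In bulk tumor RNA, fewer cells with a transcript cannot be told apart from less of it per cell. All 11 epithelial genes used to check the A549 label were among the genes compared, with a summed level of 13300 to 14800 CPM. Host-type markers differed between libraries. The summed level of 12 skeletal muscle genes was 27.1 CPM in control, 28.3 in exercise, 66.7 in radiation and 72.8 in the combination. That of 12 fibroblast genes ran from 403 and 405 in control and exercise to 293 and 252 in radiation and combination. That of 9 macrophage and neutrophil genes, with S100A8 at 0 reads in every library, was 373, 363, 430 and 493. CSF1R gave 278, 267, 239 and 251 CPM of this last sum. Of the 5 genes compared in that list, CSF1R and ITGAM were lower than in control in both irradiated libraries. CD14, CD68 and LYZ were higher there. TTN alone gave 20.7 CPM of the muscle sum in control and 20.9 in exercise. In exercise 5 of 10 compared muscle genes passed 2-fold upward, beside 0.83% of all genes compared. The 6 endothelial genes summed to 7.14 to 20.4 CPM and the 4 keratinocyte genes, with KRT1 at 0, to 36.8 to 41.9. A set of 10 RNAs that lack a polyA tail (18S ribosomal RNA, RN7SL and similar) summed to 1900 CPM in control, 926 in exercise, 2330 in radiation and 1460 in the combination. What these shifts contribute to the long noncoding RNAs was not tested.

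Together the long noncoding RNAs took 0.261% of all reads in control, 0.216% in exercise, 0.292% in radiation and 0.275% in the combination. Per length, 3 of them stood far above the rest. On the scale of CPM per kilobase of exon, the control levels were 73.4 for NORAD (72.2 to 74.6), 68.7 for MALAT1 (67.8 to 69.7) and 60.6 for NEAT1 (60.1 to 61.1). PVT1 followed at 15.97 (15.4 to 16.5), TP53TG1 at 14.6 (13.4 to 15.9) and GAS5 at 11.3 (10.8 to 11.9), and H19 was last at 0.773 (0.613 to 0.962). The counting intervals of PVT1 and TP53TG1 overlapped in every library, so their order was not resolved. MALAT1 took the first place in radiation, at 102.3, and in the combination, at 89.1, whereas in exercise its level of 68.2 (67.2 to 69.1) overlapped that of NORAD at 66.4 (65.2 to 67.5). The deposited FPKM ranks PVT1 and TP53TG1 lower, at 0.295 and 0.765 in control against 75.7 for NORAD, because it divides by the whole gene with its introns. The counts can hold intron reads over the same span, so the levels of PVT1 and TP53TG1 per exon length may be too high. Their place relative to GAS5 is therefore not settled.

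**Figure D1:**
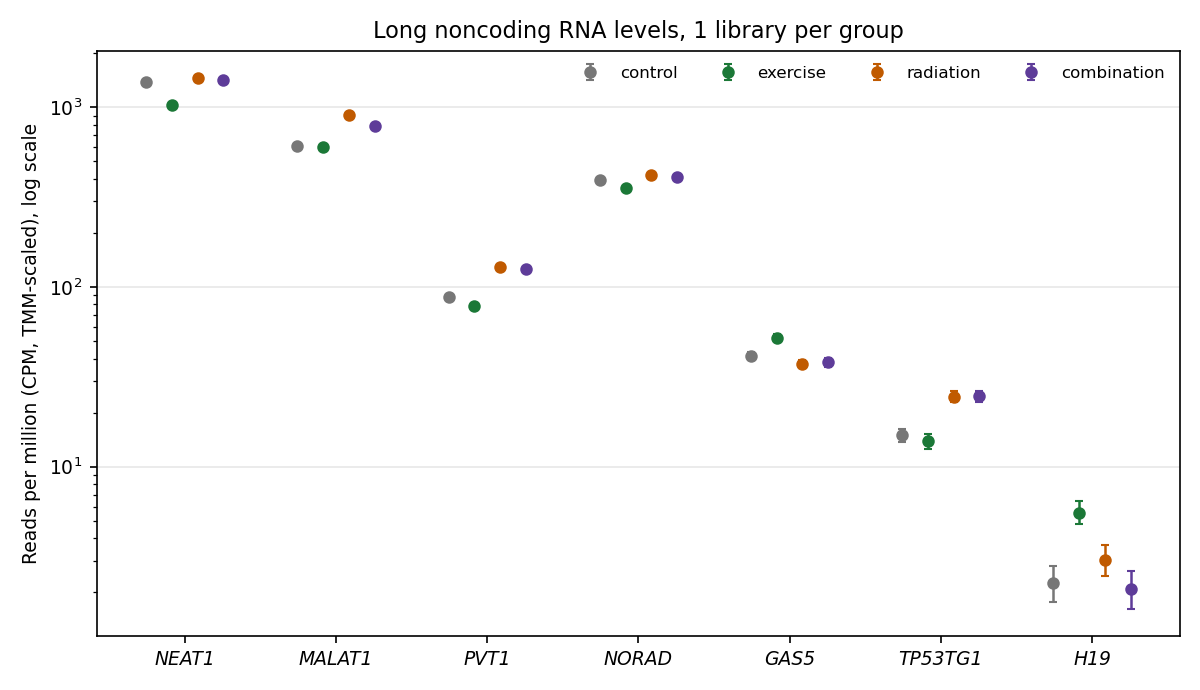
Levels of the 7 long noncoding RNAs in CPM on a log axis, 1 point per library (control, exercise, radiation, combination), with bars for the 95% counting interval. NEAT1 is lowest in exercise at 1036 CPM, GAS5 and H19 are highest there, and PVT1 and TP53TG1 are higher in both irradiated libraries than in the other 2.

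Against control, 1 of the 7 RNAs passed 2-fold with exercise, beside 1.53% of all genes compared, and it was H19. None passed it with radiation, beside 2.78% of all genes, or in the combination, beside 4.03%. Between the combination and radiation the count was also 0, beside 1.28%, and between the combination and exercise it was 1, beside 5.98%, again H19. The median log2 ratio of the 7 RNAs was −0.11 in exercise, 0.43 in radiation and 0.06 in the combination, against medians of 0.0017, 0.00085 and −0.015 over all genes. With exercise 2 of the 7 had a ratio above 0, with radiation 6 and in the combination 5. Over all 19393 genes compared, 9770, 9722 and 9281 did. The treated libraries were set against the same control library, so these counts are not independent of each other. Among the 3429 annotated long noncoding RNA genes compared, 2.42% passed 2-fold in exercise, 4.14% in radiation and 5.83% in the combination.

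**Figure D2:**
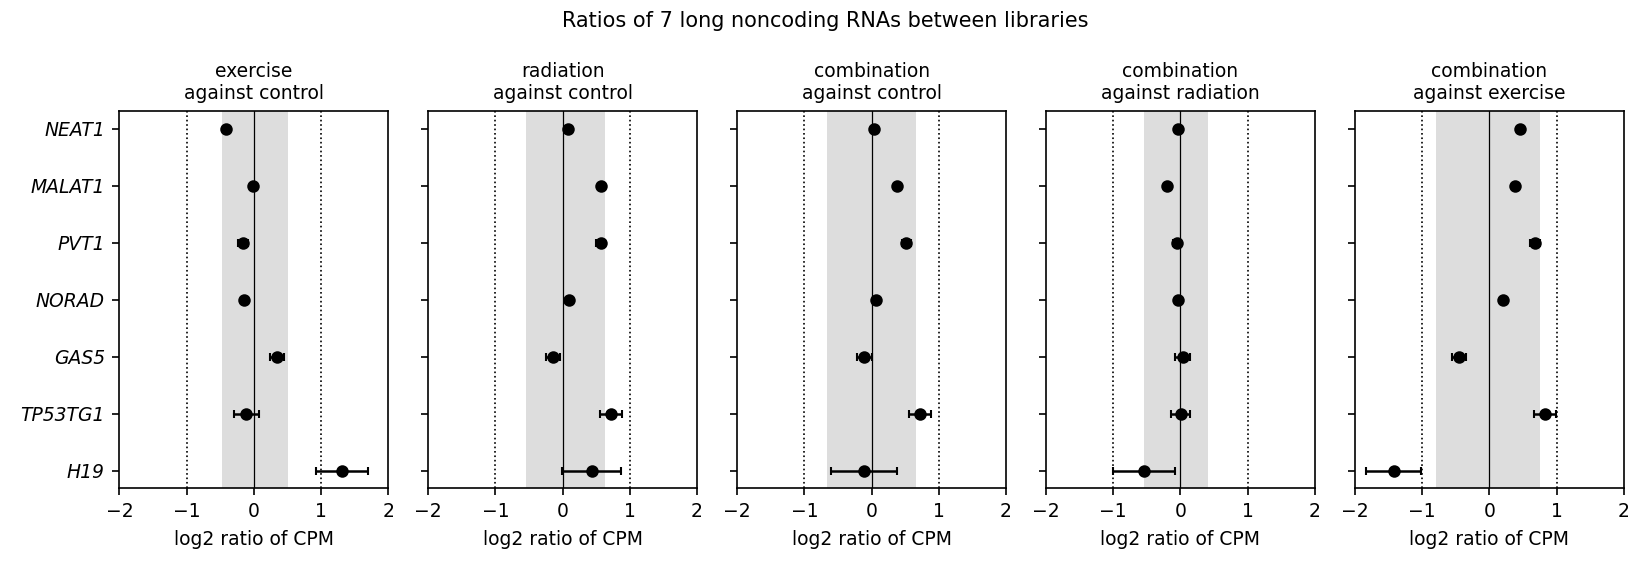
Log2 ratios of CPM between pairs of libraries for each of the 7 long noncoding RNAs, with bars for the 95% counting interval, dotted lines at 2-fold and a grey band from the 5th to the 95th percentile of all genes compared. H19 lies past 2-fold in exercise against control (2.48-fold) and in the combination against exercise (0.374-fold). TP53TG1 lies just above the band in radiation against control (1.65-fold), in the combination against control (1.65-fold) and in the combination against exercise (1.78-fold). Its log2 ratios there, 0.718, 0.721 and 0.830, lie below the 95th percentiles of the 3429 annotated long noncoding RNA genes, 0.791, 0.723 and 0.863.

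NEAT1 lies on chromosome 11 (GRCh38 chr11:65422798-65445540, plus strand), and its short isoform has a polyA tail whereas the long isoform that builds paraspeckles does not. It had 49271 reads in control, 35781 in exercise, 50666 in radiation and 46505 in the combination, or 1380, 1036, 1457 and 1420 CPM. The exercise library stood below the other 3, which lay within a narrow range. NEAT1 was 0.751-fold of control with exercise (0.740 to 0.761), a ratio below that of all but 6.22% of genes, and 1.06-fold with radiation (1.04 to 1.07). In the combination it was 1.37-fold of exercise alone (1.35 to 1.39) and 0.975-fold of radiation alone (0.963 to 0.987). The ratio of combination to radiation, divided by that of exercise to control, was 1.30 (1.28 to 1.32).

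MIR612, a microRNA gene annotated within the stretch that only the long NEAT1 isoform covers, had 76, 62, 97 and 74 reads in control, exercise, radiation and combination. Its ratio with exercise, 0.843, had a counting interval of 0.593 to 1.195 that held both 1 and the value of NEAT1. The genes of paraspeckle proteins were ordered otherwise: 11 of 15 had a log2 ratio above 0 there, with a median of 0.06 and 0 past 2-fold. SFPQ and NONO, the proteins bound along NEAT1, had 306 and 317 CPM in control and 344 and 334 with exercise. With radiation all 15 had a ratio below 0, with a median of −0.22 and again 0 past 2-fold. Over all 19393 genes compared, 9770 had a ratio above 0 with exercise and 9722 with radiation. The RNAs without a polyA tail also stood lowest in exercise, where 7 of 10 were past 2-fold lower than in control, and their part in the NEAT1 value was not tested.

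MALAT1 (chr11:65497738-65506516, plus strand) ends in an unusual way, and the sequences of its end are shown because this RNA lacks the usual polyA tail. RNase P cuts the primary transcript just before a tRNA-like piece called mascRNA, and the new end of MALAT1 is held by a stretch of A encoded in the genome. The first sequence is the 100 bases before the cut (chr11:65506017-65506116), with the longest run of A, 13 bases, in capitals, and the next is the 58-base mascRNA gene (chr11:65506117-65506174), both read from the GENCODE transcripts on the plus strand.
MALAT1 end: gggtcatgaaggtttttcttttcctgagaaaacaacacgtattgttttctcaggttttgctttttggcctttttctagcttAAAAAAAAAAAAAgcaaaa
mascRNA: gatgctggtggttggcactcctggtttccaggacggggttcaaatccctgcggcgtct

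MALAT1 had 21671 reads in control, 20793 in exercise, 31419 in radiation and 25757 in the combination, or 607, 602, 903 and 787 CPM. The libraries without radiation lay close together, radiation was highest, and the combination lay between. MALAT1 was 1.49-fold of control with radiation (1.46 to 1.52) and 1.30-fold in the combination (1.27 to 1.32). With exercise alone it was 0.992-fold (0.973 to 1.01), and the combination was 0.871-fold of radiation (0.856 to 0.885). NEAT1 reads per MALAT1 read accordingly went from 2.27 in control to 1.72 in exercise, 1.61 in radiation and 1.81 in the combination. Nuclear speckle proteins were not higher with radiation: 3 of 16 had a ratio above 0, beside 9722 of the 19393 genes compared. Their median log2 ratio was −0.14, and 0 passed 2-fold. Among them SRSF7, a splicing factor, had 145 CPM in control, 137 in exercise, 98.1 in radiation and 98.6 in the combination.

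The mascRNA gene ordered the libraries differently from MALAT1. It had 81, 131, 110 and 167 reads in control, exercise, radiation and combination, with ratios to control of 1.67 (1.26 to 2.23), 1.39 (1.04 to 1.88) and 2.25 (1.71 to 2.97), and so was highest in the combination, where MALAT1 was not. These reads may come from uncut MALAT1 transcripts, which cannot be told apart from mascRNA here. TALAM1, annotated on the opposite strand across most of MALAT1, had 21387, 20100, 30729 and 25128 reads, which is 96.7% to 98.7% of the MALAT1 count in each library. The strand setting of the counting was not given in the sources used here, so reads of MALAT1 and of its antisense partner cannot be told apart, and the values of MALAT1 may hold both.

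**Figure D3:**
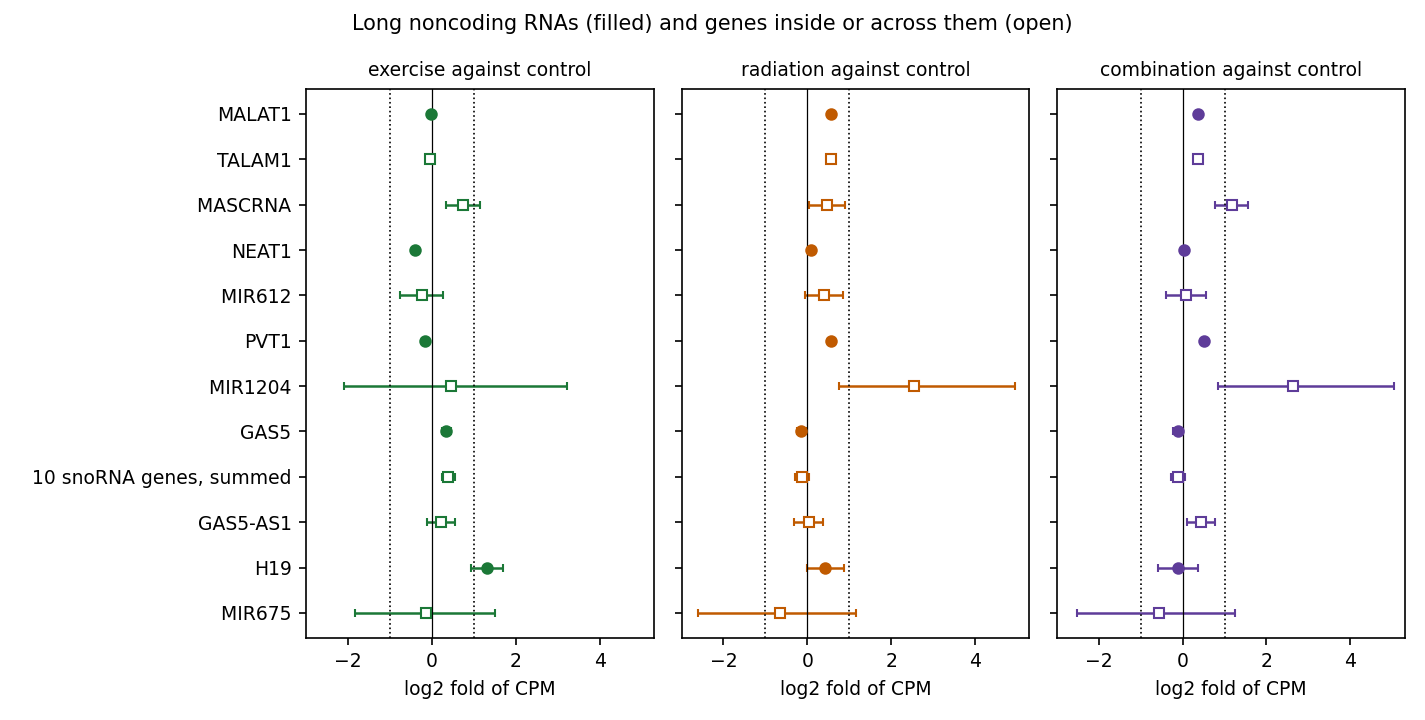
Log2 folds of CPM against control for 5 long noncoding RNAs (filled circles) and for genes annotated within or across them (open squares), with 95% counting intervals and dotted lines at 2-fold. The mascRNA gene is 2.25-fold of control in the combination where MALAT1 is 1.30-fold, and the 10 summed SNORD genes lie beside GAS5 in each panel. Reads over the mascRNA gene may come from uncut MALAT1, and GAS5 counts can hold the reads of the SNORD genes.

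NORAD (chr20:36045618-36050960, minus strand) holds Pumilio proteins through repeated short elements, and a few of these are shown as the feature that sets its sequence apart. The Pumilio motif TGTANATA was searched on the transcript strand and occurred 15 times in the 5339 bases of the GENCODE transcript, 10 times with T at the free base, 4 times with A and 1 time with C. Of 4514 other genes with a transcript at least as long, 2 (0.0443%) held as many in the first stretch of that length and 3 (0.0665%) in the last. Of the other long noncoding RNAs, NEAT1 held 6 in its 22743 bases, and the others held 0 in their longest transcripts. In 3 places neighbouring elements began 9 bases apart. Elements 1, 3, 4 and 5 are given with 8 bases on either side and the motif in capitals (chr20:36050185-36050208, chr20:36049705-36049728, chr20:36049504-36049527 and chr20:36049495-36049518, minus strand), of which the last 2 form such a pair.
element 1: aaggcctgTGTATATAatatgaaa
element 3: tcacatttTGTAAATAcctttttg
element 4: cttatctgTGTATATAgtgtacat
element 5: gtatatagTGTACATAaaggacag

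NORAD had 13990 reads in control, 12242 in exercise, 14590 in radiation and 13367 in the combination, or 392, 354, 419.5 and 408 CPM. It varied least of the 7 RNAs over the 4 libraries, with exercise lowest and radiation highest. The ratios to control were 0.904 with exercise (0.883 to 0.927), 1.07 with radiation (1.05 to 1.10) and 1.04 in the combination (1.02 to 1.07). The last was just below 1 when libraries were scaled by total counts (log2 ratio −0.016), so its direction depends on the scaling, as does that of NEAT1 in the same comparison (−0.034). Of 6 NORAD partner genes 0 passed 2-fold in any comparison. PUM2, which encodes a Pumilio protein, had 119 CPM in control and 109 with radiation.

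TP53TG1 (chr7:87325347-87345492, minus strand) starts 171 bases from CROT, the gene of a peroxisomal carnitine acyltransferase read the other way, and the pair share the DNA between their starts. The RefSeq promoter window of TP53TG1 (GRCh38.p14 chr7:87345443-87345742, minus strand) is shown because both genes were higher than in control in the irradiated libraries, and its capitals mark the bases between the starts.
TP53TG1 promoter: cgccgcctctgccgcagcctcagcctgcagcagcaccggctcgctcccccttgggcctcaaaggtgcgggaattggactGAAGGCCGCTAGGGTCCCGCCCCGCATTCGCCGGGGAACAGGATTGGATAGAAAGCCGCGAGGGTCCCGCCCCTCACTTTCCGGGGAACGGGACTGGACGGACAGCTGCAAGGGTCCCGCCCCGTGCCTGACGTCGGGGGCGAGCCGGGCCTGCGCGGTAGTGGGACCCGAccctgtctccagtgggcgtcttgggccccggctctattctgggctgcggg
The p53 half-site, a palindrome and thus the same on both strands, was absent from this window and from those of MALAT1, NORAD, GAS5 and H19, and was present in 2329 of 35116 windows of the same length (6.63%). These letters can stand elsewhere in a gene, and the windows say nothing of p53 binding.

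TP53TG1 had 533 reads in control, 478 in exercise, 854 in radiation and 806 in the combination, or 14.9, 13.8, 24.6 and 24.6 CPM. The irradiated libraries were level with each other and above the libraries without radiation, and their counting intervals did not reach those. TP53TG1 was 1.65-fold of control with radiation (1.48 to 1.84) and 1.65-fold in the combination (1.48 to 1.84), below the 2-fold mark in both, and the combination was 1.002-fold of radiation (0.909 to 1.11). With exercise the ratio was 0.927 (0.817 to 1.05). The skeletal muscle marker sum was also higher in the irradiated libraries (66.7 and 72.8 CPM against 27.1 in control), and its part in the values of TP53TG1, PVT1 and MALAT1 was not tested. CROT had 998, 865, 1264 and 1032 reads, with ratios to control of 0.896 (0.817 to 0.982), 1.30 (1.196 to 1.41) and 1.13 (1.03 to 1.23).

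Most genes listed as p53 targets or linked to p53 were higher than in control in the irradiated libraries. Many of them passed the 2-fold mark that TP53TG1 did not reach. The part of p53 in the values of TP53TG1 and of these genes was not tested. Of 30 protein-coding p53 targets, 0 passed 2-fold with exercise, 18 were at least 2-fold higher with radiation and 20 in the combination, with median log2 ratios of 0.08, 1.2 and 1.4. Over all genes compared, 1.53% passed 2-fold in either direction with exercise. The shares at least 2-fold higher were 1.89% with radiation and 2.27% in the combination. CDKN1A, the cell-cycle inhibitor p21, went from 60.6 CPM in control to 79.6 in exercise, 327 in radiation and 408 in the combination. MDM2, the ubiquitin ligase that degrades p53, had 91.0, 83.7, 272 and 290 CPM. Of 7 other long noncoding RNAs linked to p53 that could be compared, the same 3 were at least 2-fold higher with radiation and in the combination, namely PURPL, MIR34AHG and PINCR. Over the annotated long noncoding RNA genes compared, the shares were 2.8% and 2.62%. PURPL had 2981 reads in control, 2635 in exercise, 9468 in radiation and 6569 in the combination, and MIR34AHG, the host gene of a p53-induced microRNA, had 658, 670, 1342 and 1511. PINCR had 7, 5, 98 and 47 reads, so its control level rests on few counts. PURPL and PINCR, like MALAT1, had a lower CPM in the combination than in radiation, with log2 ratios of −0.44 and −0.97. Of the 3429 annotated long noncoding RNA genes compared, 1361 had a ratio above 0 there. MIR34AHG was higher in the combination than in radiation (0.26), as were all 30 protein-coding targets, with a median of 0.14. LINC-PINT, by contrast, had 25.1, 24.9, 24.6 and 23.8 CPM.

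**Figure D4:**
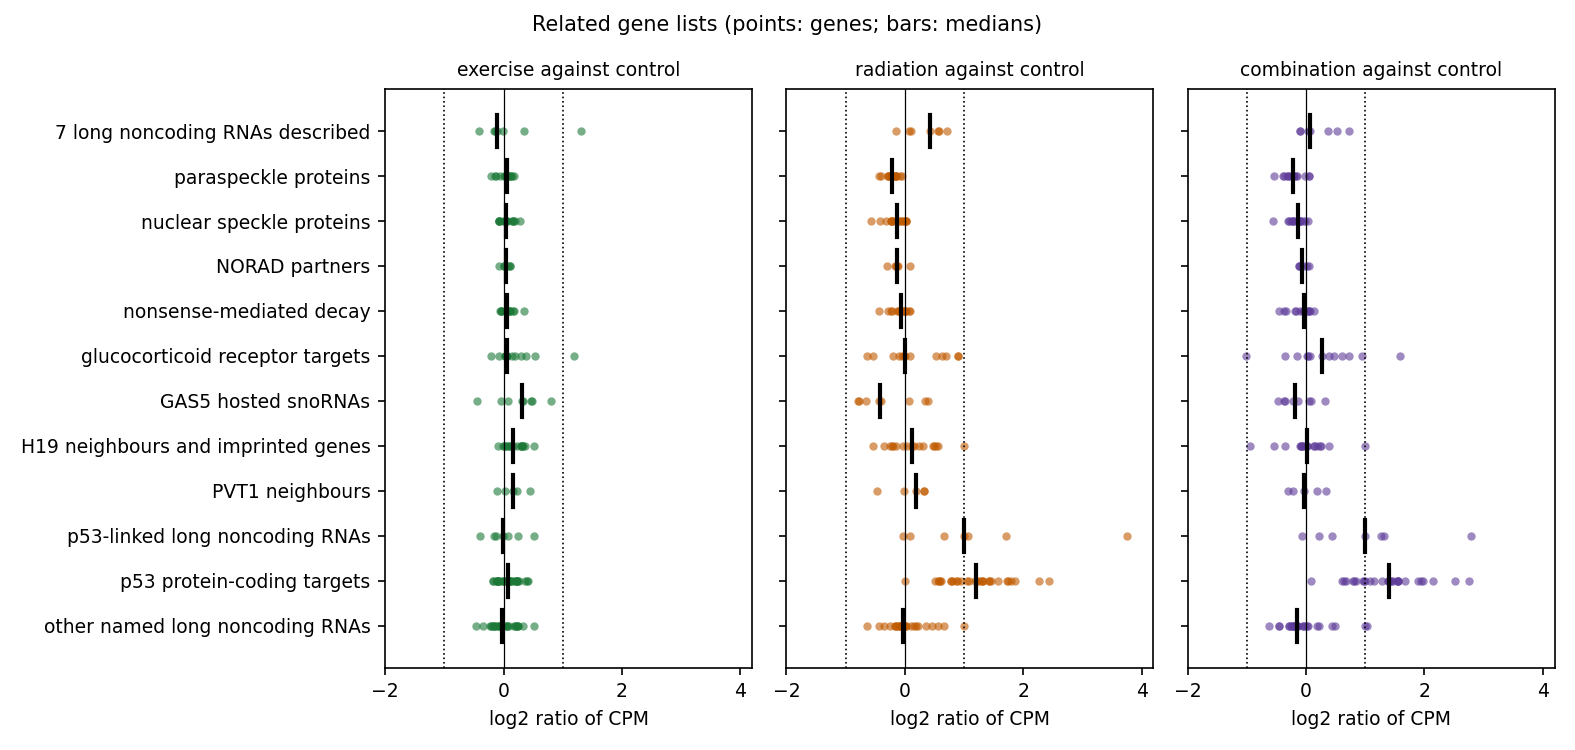
Log2 ratios of CPM against control for the genes of each related list (points) with the list median (bar) and dotted lines at 2-fold. The p53 protein-coding targets have medians of 1.2 with radiation and 1.4 in the combination, and the paraspeckle, nuclear speckle, NORAD partner and decay lists have no gene past 2-fold in any panel.

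GAS5 (chr1:173863901-173869045, minus strand) belongs to the RNAs that begin with C and a run of pyrimidines, the mark of transcripts whose translation follows nutrient and growth signals. Its first 40 bases in 6 of its 29 GENCODE transcripts are shown for that reason (chr1:173867950-173867989, minus strand), with the starting run of 6 pyrimidines in capitals. Of 206534 transcripts in the annotation, 2.41% began with C and 4 further pyrimidines.
GAS5 start: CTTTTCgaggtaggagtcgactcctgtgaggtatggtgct

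GAS5 had 1468 reads in control, 1804 in exercise, 1294 in radiation and 1249 in the combination, or 41.1, 52.2, 37.2 and 38.1 CPM. Exercise was the highest library, and the irradiated libraries lay close to each other, slightly below control. GAS5 was 1.27-fold of control with exercise (1.19 to 1.36), above 91.0% of all genes, and 0.905-fold with radiation (0.839 to 0.976). In the combination it was 0.928-fold of control (0.860 to 1.001), 0.730-fold of exercise (0.679 to 0.786) and 1.03-fold of radiation (0.948 to 1.11). NEAT1, NORAD and PVT1, by contrast, were each lowest with exercise.

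The 10 SNORD genes within GAS5 ordered the libraries as GAS5 did when summed. The FPKM of GAS5 implies a length of 4984 bases, near its gene span of 5145. GAS5 counts can thus hold the reads of these SNORD genes, and the shared order is no separate evidence. Their summed reads were 659, 837, 591 and 559 in control, exercise, radiation and combination, equal to 44.8% to 46.4% of the GAS5 count. The ratios of the sum to control were 1.31 (1.18 to 1.46), 0.921 (0.823 to 1.03) and 0.925 (0.825 to 1.04). Of the 8 with enough reads to compare singly, 6 had a log2 ratio above 0 with exercise, with a median of 0.32, and 3 with radiation, with a median of −0.42. SNORA103, a snoRNA gene within GAS5 that the sum leaves out, had 39, 35, 25 and 27 reads. SNORD47 was 1.74-fold of control with exercise (1.37 to 2.21), SNORD79 was 1.05-fold (0.802 to 1.38), and with radiation SNORD79 was 0.583-fold (0.421 to 0.801). Reads of mature snoRNAs and of unspliced GAS5 cannot be told apart here. The antisense gene GAS5-AS1 had 140, 158, 140 and 174 reads and the overlapping gene ZBTB37 857, 821, 888 and 596, so neither ordered the libraries as GAS5 did.

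Of 14 genes of nonsense-mediated decay 0 passed 2-fold in any comparison, and UPF1, the helicase of that pathway, had 66.7, 68.5, 57.1 and 59.3 CPM. GAS5 can also bind the glucocorticoid receptor, whose gene NR3C1 had 191 CPM in control, 164 in exercise, 167 in radiation and 172 in the combination. Of the 13 glucocorticoid receptor genes and targets compared, 1 was at least 2-fold higher with exercise and in the combination, the phosphatase gene DUSP1, at 37.8, 86.4, 60.8 and 114 CPM. TFCP2L1 was at least 2-fold lower in the combination (28.5 CPM in control and 14.1 there). DUSP1 is also known as an immediate early gene.

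H19 (chr11:1995176-2001266, minus strand) is the precursor of miR-675, whose mature arms are shown from RefSeq (chr11:1996768-1996787 and chr11:1996800-1996822, GRCh38.p14, minus strand) with the seed, bases 2 to 8, in capitals, since the seed chooses a microRNA's targets.
hsa-miR-675-3p: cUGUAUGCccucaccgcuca
hsa-miR-675-5p: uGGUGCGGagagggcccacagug

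H19 had 80 reads in control, 192 in exercise, 105 in radiation and 68 in the combination, or 2.24, 5.56, 3.02 and 2.08 CPM. Exercise stood alone at the top, and control and combination were not separated by their counting intervals. H19 was 2.48-fold of control with exercise (1.90 to 3.26), and 0.541% of all genes differed by as much in either direction. With radiation it was 1.35-fold (0.998 to 1.83) and in the combination 0.927-fold (0.661 to 1.30). The combination was 0.374-fold of exercise (0.279 to 0.495) and 0.688-fold of radiation (0.499 to 0.942). The ratio of combination to radiation, divided by that of exercise to control, was 0.277 (0.186 to 0.414), past 2-fold beside 3.96% of all genes. On FPKM with 0.1 added, the exercise ratio of H19 fell under 2-fold. The FPKM of H19 implies a length of 12565 bases against 6091 in RefSeq, and the gene model behind these reads was not given in the sources used here. Skeletal muscle is a known adult source of H19. Of its 10 marker genes compared, CKM, MYH1, MYH2, MYH4 and MYH7 passed 2-fold upward in exercise, on few reads. MYH4 had the most of these 5, with 1 read in control and 25 in exercise, and MYH7 had 0 and 2. In radiation 6 of the 10 passed 2-fold upward and in the combination 7. Over all genes compared, 0.83% did so in exercise, 1.89% in radiation and 2.27% in the combination. The part of muscle in the H19 values was not tested.

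The neighbours of H19 had smaller ratios with exercise. MIR675 itself had 8, 7, 5 and 5 reads, too few to order the libraries. MRPL23, a mitochondrial ribosomal protein gene whose annotated span crosses H19, had 697, 758, 592 and 597 reads. IGF2, the growth factor gene imprinted in the opposite sense, had 597, 721, 524 and 376 reads, the same counts as the read-through gene INS-IGF2, with which its reads are shared. Its ratio to control was 1.25 with exercise (1.12 to 1.39) and 0.687 in the combination (0.602 to 0.783). Of 17 neighbouring and imprinted genes compared, 15 had a ratio above 0 with exercise, with a median log2 ratio of 0.17 and 0 past 2-fold. Over all 19393 genes compared, 9770 had a ratio above 0 there. The 17 genes include KCNQ1 and KCNQ1OT1, whose counts were nearly equal and may share reads. MEG3, an imprinted RNA that activates p53 and also stands in the p53-linked list, had 53.3 CPM in control, 76.5 in exercise, 107 in radiation and 106 in the combination, log2 ratios of 0.998 and 0.993 for the last 2 that lay just under 2-fold.

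PVT1 (chr8:127794524-128101256, plus strand) had 3133 reads in control, 2706 in exercise, 4519 in radiation and 4115 in the combination, or 87.7, 78.3, 129.9 and 126 CPM. As with TP53TG1, both irradiated libraries stood above the other libraries. PVT1 was 1.48-fold of control with radiation (1.42 to 1.55) and 1.43-fold in the combination (1.37 to 1.501), and the combination was 1.604-fold of exercise (1.53 to 1.69) and 0.967-fold of radiation (0.927 to 1.01). With exercise alone it was 0.893-fold (0.848 to 0.940). MYC, which lies 51572 bases away, took the other direction, with 97.9 CPM in control, 109 in exercise, 70.9 in radiation and 79.1 in the combination. Its ratio to control was 0.725 with radiation (0.688 to 0.763) and 1.12 with exercise (1.07 to 1.17). Of 5 neighbours of PVT1 that could be compared, MYC among them, 0 passed 2-fold in any comparison. MIR1204, the microRNA gene nearest the start of PVT1, had 3, 4, 17 and 17 reads. Its ratio with radiation was 5.82 with a counting interval of 1.68 to 31.0, which lay above the interval of PVT1 but rests on 3 control reads.

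The genes whose 3 log2 ratios to control were most like those of H19, by root mean square difference among 15385 genes averaging at least 100 counts, were MMP1 (0.20), LINC00705 (0.26) and FLRT2 (0.29). MMP1, an interstitial collagenase, had 140, 369, 151 and 132 reads in control, exercise, radiation and combination. For TP53TG1 they were EMB (0.029), GASK1B (0.033) and UCP2 (0.037), and UCP2, a mitochondrial carrier, had 1707, 1502, 2752 and 2481 reads. For PVT1 they were TMEM144 (0.011), ST6GALNAC4 (0.022) and AGR2 (0.031). AGR2, a disulfide isomerase of secretory cells, had 23957, 20437, 34779 and 32582 reads. These 3 RNAs were chosen for their wide range, and the likeness rests on 4 libraries that share 1 control.

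Among 26 other named long noncoding RNAs compared, 0 passed 2-fold with exercise or with radiation, and HCP5 alone did in the combination, with 81, 76, 109 and 152 reads. FTX had 598 CPM in control, 534 in exercise, 605 in radiation and 437 in the combination, and its log2 ratio to control in the last was −0.45. TUG1 had 246, 261, 266 and 223 CPM. MIR17HG, the host of a microRNA cluster driven by MYC, had 137, 119, 86 and 81 reads, with log2 ratios of −0.63 in both irradiated libraries.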

How the data were processed

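The authors made stranded libraries of polyA RNA. Reads were trimmed with cutadapt, a tool named in the submitters' processing notes, then aligned to GRCh38 with Bowtie2 2.3.4.1, which does not place reads across introns, and counted per gene with featureCounts 1.6.0. The authors deposited 1 raw read count per gene and library. They also deposited FPKM, whose implied length was the whole gene span for most of the 7 RNAs. Not given in the sources used here are the strand setting, how mouse reads were handled and whether tumors were pooled.

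Library sizes were scaled by TMM (edgeR 4.0.16, R 4.3.3) on genes averaging at least 20 counts, giving factors from 0.980 to 1.03, and DESeq2 1.42.0 gave the alternative size factors. Ratios used a prior of 0.5 counts and a 2-fold threshold, with no test. Exon lengths are merged GENCODE v29 exons, used in place of RefSeq exons. Coordinates and promoters are from RefSeq and transcripts from GENCODE. Python 3.11.15 ran the rest, with scipy 1.17.1, pandas 2.3.3, numpy 2.4.6 and matplotlib 3.10.9.

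The RNAs, lists and markers were chosen with earlier results of these data known. Named genes were all 7 RNAs, genes inside or beside them, up to 2 highest and 2 lowest past 2-fold of each list, the genes a list is about, and for the 3 RNAs of widest range the 3 genes of most alike pattern; SRSF7, SNORD47, SNORD79, LINC-PINT, FTX, TUG1, MIR17HG and MEG3 were named after their values were seen. Some genes that this rule covers are not reported here. Counts of exercise and control were also simulated over 19393 genes. Of genes given a 2.5-fold difference 98.0% were called, and of genes left alike 0.12%. The spread between tumors is unknown, so these shares speak for counting error only. They give no rate of false calls between tumors.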

Additional observations from a re-analysis of the deposited data

Results flagged for a closer look

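H19 and TP53TG1 were picked out because their ratios for the same treatment lay on opposite sides of 1 with and without the other treatment. With 1 library per group the difference between the ratios was not tested. For H19, exercise gave 2.48-fold of control without radiation and 0.688-fold of the radiation library with it. Radiation gave H19 ratios of 1.35 without exercise and 0.374 with it. For TP53TG1, exercise gave 0.927 without radiation and 1.002 with it, and the counting intervals of both ratios include 1.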

How the results depend on the processing

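No paired analysis was possible because each group has 1 library, and for the same reason no library could be left out of a comparison. Of 42 ratios of the 7 RNAs, 42 kept their direction and their side of 2-fold with priors of 2 or 0.1 counts and with median-of-ratios scaling. With total-count scaling and with FPKM plus 0.1, 39 kept their direction. Those that did not were NEAT1 and NORAD in the combination against control and TP53TG1 in the combination against radiation, all within 0.059 of 0 on the log2 scale. With FPKM plus 0.1 the TP53TG1 log2 ratio was 0 and thus had no direction. The number of the RNAs past 2-fold with exercise was 0 with FPKM plus 0.1, a value added that is large beside the H19 level of 0.184 FPKM in control.

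The number of genes past 2-fold over all genes, in the order exercise, radiation and combination against control, combination against radiation and combination against exercise, was 74, 159, 241, 36 and 422 with FPKM plus 0.1. It was 5623, 6055, 6468, 5600 and 6686 with no minimum count, and 71, 221, 325, 23 and 597 with a minimum mean of 100 counts. At 1.5-fold it was 1369, 1970, 2454, 1270 and 3098. With total-count scaling the share of higher genes among those past 2-fold went from 54.4% to 46.2% with exercise, from 67.8% to 57.6% with radiation and from 56.5% to 45.5% in the combination, all against control. Counting error sets the limit for H19, MIR675, MIR1204 and PINCR, and the spread between tumors is unknown for all.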
